A study of Mus musculus with 6 samples.

Results

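The Six-Eya-Dach network is a set of nuclear proteins that act together in the formation of muscle, kidney, ear and eye. Six-family proteins are homeodomain factors that bind DNA, Eya proteins bind no DNA themselves and join them as coactivators that also carry phosphatase activity, and Dach proteins are cofactors related to the Ski co-repressors. In myogenesis the network is known to act beside and upstream of the Pax and MyoD families, and Six-family proteins bind a muscle element called MEF3 in several muscle promoters. Mouse Six2, Eya1 and Eya2 are also known from developing limb tendons and Dach1 from limb bud mesenchyme, so these genes are not particular to muscle.

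The 9 genes described here (Six2, Six4, Six5, Eya1, Eya2, Eya3, Eya4, Dach1 and Dach2) were taken by the symbols of the platform annotation, with earlier results of these data known. They stand among 18182 named genes and were measured by 23 of 44994 probe sets, and each gene is represented by whichever of its probe sets was brightest on average. RNA came from mouse limb cells carrying the Tg:Pax7-nGFP transgene, a nuclear green fluorescent reporter under the control of Pax7, sorted from E17.5 fetuses (3 arrays) and from E12.5 embryos (3 arrays). All animals shared that transgene and a mixed C57BL/6:DBA2 background, the limbs of both ages were dissociated with trypsin, and the labels call arrays A, B and C of each age biological replicates. The number of embryos behind a sample is not given in the sources used here. The single comparison, E17.5 against E12.5, sets fetal against embryonic Pax7-reporter cells.

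The arrays were alike in overall signal, with medians of 3.38 to 3.47 (log2) and 33.7% to 34.8% of probe sets at 6 or above, and the number of arrays limits the precision. Of the 10 markers of myogenic cells, Myod1, a muscle determination gene, averaged 10.99 ± 0.05 in E17.5 arrays and 10.83 ± 0.22 in E12.5 arrays, whereas Itga7, a muscle integrin gene, averaged 9.06 ± 0.19 in E17.5 arrays and lay in the background range in E12.5 arrays, at 2.22 ± 0.08 (SD, n = 3 each). Pax7, the gene whose control elements drive the reporter, averaged 12.37 ± 0.15 in E17.5 arrays and 11.46 ± 0.28 in E12.5 arrays (SD, n = 3 each). Arrays A and B of E17.5 were unusually alike: over 8758 genes averaging 6 or more, their difference had an SD of 0.152, where the remaining pairs within an age gave 0.412 to 0.551. The 9 genes differed between them by at most 0.5. Because these arrays may not be independent, p-values are also given with their mean taken as a single sample. In RNA from many cells, fewer cells expressing a gene and less of its RNA per cell cannot be told apart.

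Of the 9 genes, 5 were lower at E17.5, 0 were higher and 4 were not called (limma, Benjamini-Hochberg adjusted p under 0.05 over all genes). The 5 were Six4, Eya1, Eya2, Dach1 and Dach2. Over all genes 8.73% were called lower and 8.21% higher by the same rule, and the share called lower was 13.2% among genes averaging at least 6. The difference was below 0 in 8 of the 9, and its median was -1.29, against 0.003 over all genes. In 7 of the 9 every E17.5 array lay below every E12.5 array, as in 17.2% of all genes, and 0 of the 9 had the opposite separation, found in 14.2% of all genes. All 5 calls were also made with E17.5 A and B averaged.

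**Figure D1:**
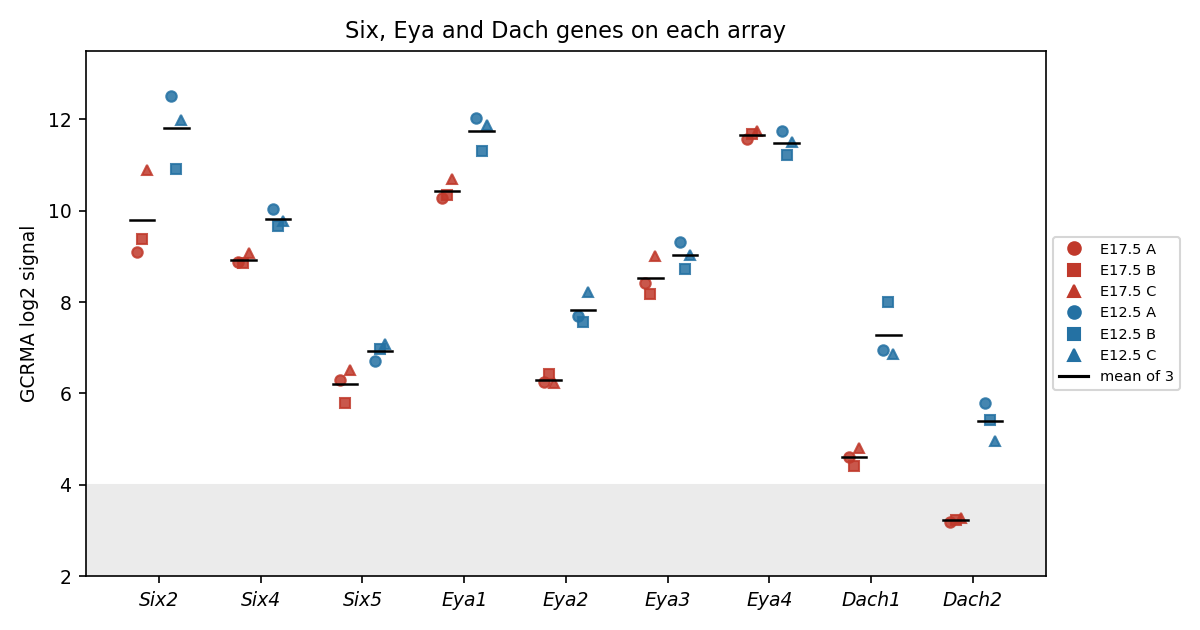
GCRMA log2 signal (y axis) of the 9 genes (x axis) on each array, with E17.5 in red on the left and E12.5 in blue on the right of each pair, point shapes for replicates A, B and C, and black bars for the mean of 3 arrays. The grey band is the range under 4, which is mostly background after GCRMA. The ages overlap in Eya3 and Eya4, and Dach2 lies in the grey band at E17.5.

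Annotated promoter windows of 300 bases (250 before and 50 after a start) were read from RefSeq, build GRCm38.p6, for the called genes with a window. Eya1 and Eya2 had none. The windows are in lower case with any MEF3 match in capitals. Which starts were used in these cells was not measured. The Six4 window lies at chr12:73113196-73113495 on the minus strand, that of Dach1 at chr14:98169716-98170015 on the minus strand, and the printed one of the 2 windows of Dach2 at chrX:113298006-113298305 on the plus strand. Each is written 5′ to 3′ in the direction of transcription.
Six4: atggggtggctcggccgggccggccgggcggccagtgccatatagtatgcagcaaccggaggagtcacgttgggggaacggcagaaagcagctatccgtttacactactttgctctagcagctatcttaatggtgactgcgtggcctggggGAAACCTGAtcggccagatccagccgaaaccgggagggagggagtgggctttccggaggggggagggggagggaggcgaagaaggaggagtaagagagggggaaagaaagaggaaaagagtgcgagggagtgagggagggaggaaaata
Dach1: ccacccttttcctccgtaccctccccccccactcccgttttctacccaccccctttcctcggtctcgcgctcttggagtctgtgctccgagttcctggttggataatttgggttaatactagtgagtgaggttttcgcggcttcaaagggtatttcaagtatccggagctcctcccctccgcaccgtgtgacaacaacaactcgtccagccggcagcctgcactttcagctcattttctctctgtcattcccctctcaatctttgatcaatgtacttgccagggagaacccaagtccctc
Dach2: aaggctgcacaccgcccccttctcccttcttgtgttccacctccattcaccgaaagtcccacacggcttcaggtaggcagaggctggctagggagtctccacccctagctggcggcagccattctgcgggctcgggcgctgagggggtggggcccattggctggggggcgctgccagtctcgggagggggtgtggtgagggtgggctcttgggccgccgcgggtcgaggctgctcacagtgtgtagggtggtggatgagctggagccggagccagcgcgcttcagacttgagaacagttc
The letters TCAGGTTTC, the MEF3 element, were searched on both strands, and the capitals in the Six4 window are their reverse complement, starting 99 bases before the start. Of the 10 windows of 7 of the 9 genes, this was the only one with the motif, and a second Six4 window, at chr12:73113376-73113675, held none. The motif occurred in 141 of 32851 RefSeq windows (0.429%). The shorter core TCAGGTT, which lies within the longer motif, was in 4.07% of all windows and in the same Six4 window alone among those of these genes. The E-box CAGCTG, read by MyoD-type factors, was in 16.3% of all windows and in 0 of these 10. These matches describe letters in the windows and not bound sites.

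Among the Six-family genes, which encode the DNA-binding partners, Six4 was lower at E17.5 by a small and even step. Six4 encodes a factor known for binding regulatory elements of muscle genes. Its signal was 8.87, 8.85 and 9.08 in E17.5 arrays A, B and C, against 10.03, 9.66 and 9.77 in E12.5 arrays A, B and C. The ages did not overlap, and the arrays within an age lay close together. The means were 8.93 ± 0.13 at E17.5 and 9.82 ± 0.19 at E12.5 (SD, n = 3 each), a difference of -0.89 (SE 0.14, 95% interval -1.22 to -0.55, limma adjusted p = 0.0067; 0.0358 with A and B averaged). The E17.5 level was thus 0.541 times that of E12.5. Both other Six4 probe sets with signal moved by a similar amount, by -0.89 and -0.78 (adjusted p = 0.0128 and 0.03 over all probe sets), while the remaining one lay at 1.96 on average.

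Six2, known for keeping nephron progenitors undifferentiated and expressed in limb connective tissue, had one of the largest differences and was not called. It read 9.09, 9.39 and 10.88 in E17.5 arrays A, B and C, against 12.52, 10.92 and 11.99 in E12.5 arrays A, B and C. E17.5 C stood well above A and B, and E12.5 B below A and C, so that these arrays nearly met. The means were 9.79 ± 0.96 at E17.5 and 11.81 ± 0.82 at E12.5 (SD, n = 3 each), and the difference of -2.02 had an SE of 0.57 and a 95% interval of -3.38 to -0.67 (limma adjusted p = 0.0556; 0.155 with A and B averaged). Six2 passed the threshold without E17.5 C (-2.57, adjusted p = 0.0192) or without E12.5 B (-2.47, adjusted p = 0.0397). Six2 was measured by 1 probe set. Its neighbour on chromosome 17, Six3, a gene of eye and forebrain named here after its values were seen, lay in the background range in all arrays, with 3 probe sets between 2.19 and 2.71.

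Six5, which in humans lies beside the myotonic dystrophy gene DMPK, was not called. It read 6.30, 5.80 and 6.52 in E17.5 arrays A, B and C, against 6.71, 6.98 and 7.08 in E12.5 arrays A, B and C. The ages did not overlap, with 0.72 between their means (difference -0.72, SE 0.26, 95% interval -1.34 to -0.09, limma adjusted p = 0.124). Dmpk, its neighbour on mouse chromosome 7, which encodes a muscle protein kinase, was higher at E17.5. It read 6.72, 6.97 and 8.46 in E17.5 arrays and 5.81, 4.70 and 5.35 in E12.5 arrays, a rise of 2.10 (SE 0.52, limma adjusted p = 0.0378). That call was lost with A and B averaged (adjusted p = 0.0585) and without E12.5 B, E12.5 C or E17.5 B (adjusted p 0.106, 0.0958 and 0.0757). With the mean of its probe sets Dmpk rose by 1.05 (limma adjusted p = 0.0468).

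The Eya genes, the coactivators of the network, were divided: Eya1 and Eya2 were lower, and Eya3 and Eya4 were not called. Eya1, whose human counterpart is mutated in branchio-oto-renal syndrome, read 10.28, 10.35 and 10.70 in E17.5 arrays A, B and C, against 12.03, 11.31 and 11.87 in E12.5 arrays A, B and C. The ages were well apart. Its means were 10.44 ± 0.23 at E17.5 and 11.74 ± 0.38 at E12.5 (SD, n = 3 each), a difference of -1.29 (SE 0.21, 95% interval -1.80 to -0.79, limma adjusted p = 0.00766; 0.0318 with A and B averaged). A further Eya1 probe set, with a mean of 7.48, differed by -1.66 (adjusted p = 0.0334 over all probe sets), and the last one was at 2.64.

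Eya2, which cooperates with Six-family and Dach factors in the myogenesis of chick somites, read 6.26, 6.43 and 6.22 in E17.5 arrays A, B and C, against 7.69, 7.57 and 8.22 in E12.5 arrays A, B and C. The E17.5 arrays were nearly level and lay more than 1 log2 unit below the lowest E12.5 array. The means were 6.30 ± 0.11 at E17.5 and 7.83 ± 0.35 at E12.5 (SD, n = 3 each), with a difference of -1.52 (SE 0.23, 95% interval -2.08 to -0.97, limma adjusted p = 0.00577; 0.0255 with A and B averaged). The E17.5 level was 0.348 times that of E12.5 for Eya2 and 0.408 times for Eya1.

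Eya3, the broadly expressed member of the family, gave a different answer by probe set. The brightest probe set read 8.42, 8.17 and 9.0 in E17.5 arrays A, B and C, against 9.31, 8.73 and 9.03 in E12.5 arrays A, B and C. E17.5 C lay between the E12.5 arrays, and the difference of -0.49 was not called (SE 0.25, 95% interval -1.10 to 0.11, limma adjusted p = 0.279). The next probe set, with a mean of 7.42, read 6.93, 7.04 and 7.04 in E17.5 arrays A, B and C and 7.91, 7.62 and 7.97 in E12.5 arrays A, B and C. Here the ages were apart, with a difference of -0.83 (SE 0.16, adjusted p = 0.0283 over all probe sets). The other 2 probe sets of Eya3 lay under 3.

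Eya4, mutated in a human form of hearing loss with heart muscle disease, overlapped between the ages and was not called. It read 11.57, 11.68 and 11.74 in E17.5 arrays A, B and C, against 11.74, 11.21 and 11.51 in E12.5 arrays A, B and C. The difference of 0.18 had a 95% interval of -0.17 to 0.53 (SE 0.15, limma adjusted p = 0.563), which holds no change of 2-fold in either direction. A further probe set with a mean of 9.24 differed by 0.21 (adjusted p = 0.765 over all probe sets). A dim one with a mean of 4.11 differed by -0.76 (adjusted p = 0.368) and read 3.70 to 3.78 at E17.5 against 3.73 to 5.29 at E12.5.

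Whether relatives changed unequally was tested on the difference between their log2 signals within each array, for all 10 pairs of relatives among the 9 genes. The Eya1 signal minus the Eya4 signal averaged -1.22 ± 0.16 in E17.5 arrays and 0.25 ± 0.13 in E12.5 arrays (SD, n = 3 each), a shift of -1.47. Eya2 minus Eya4 shifted by -1.70, Eya3 minus Eya4 by -0.67, Eya2 minus Eya3 by -1.03 and Eya1 minus Eya3 by -0.80. All shifts used the brightest probe set of each gene. That of Eya3 differed by -0.49 and its next one by -0.83, so the shifts against Eya3 depend on the probe set. In each of these 5 pairs the ages did not overlap, and the exact two-sided permutation p was 0.1, the smallest that 3 arrays against 3 can give (0.2 adjusted over the 10 pairs). The other 5 pairs, among them Eya1 with Eya2 (0.23) and Dach1 with Dach2 (-0.51), overlapped between the ages (exact permutation p of 0.2 to 0.5). The exact permutation test cannot pass the threshold with 3 arrays against 3, whatever the size of a shift, so it cannot decide whether relatives changed unequally. The pairs share genes and are not separate results. How often pairs of other genes have ages apart was not taken. Among single genes E17.5 lay below in 17.2% and above in 14.2%.

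**Figure D2:**
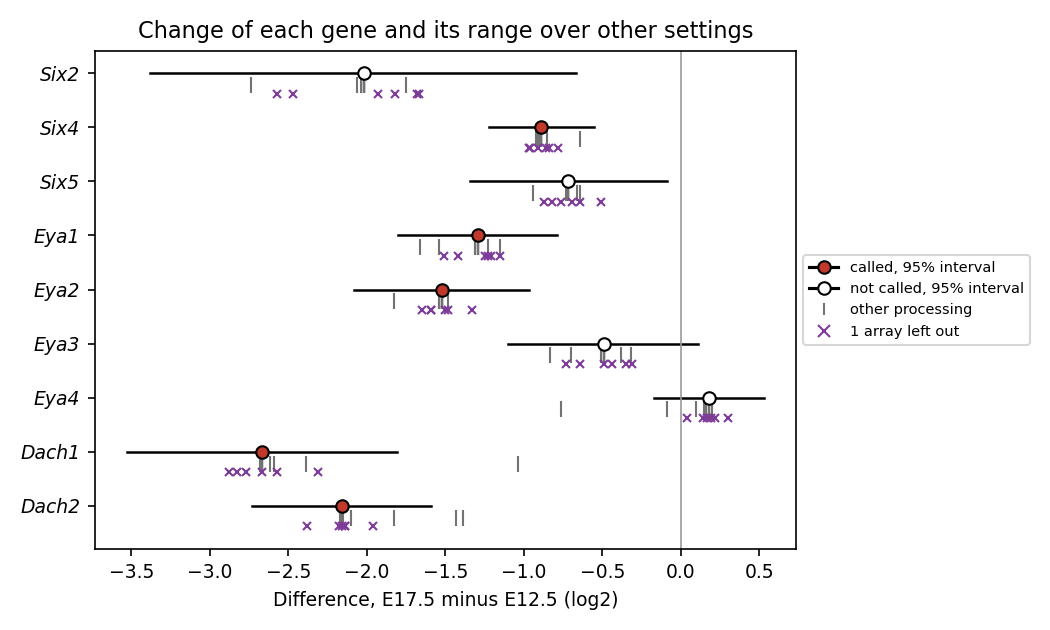
Difference between E17.5 and E12.5 on the log2 scale (x axis) for each gene (y axis), as points with 95% intervals, filled in red where called. Grey bars are values under other processing and purple crosses values with 1 array left out. The marks of Dach1 at -1.04 and of Eya4 at -0.76 come from other choices of probe set.

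The Dach genes, cofactors of the network, were both called lower, with sizes that depended on the processing: Dach2 differed by -1.39 with a floor at 4, and Dach1 by -1.04 with the mean of its probe sets, both then smaller than Eya2 (-1.52). Dach1, a gene of limb bud mesenchyme and of many other tissues, read 4.61, 4.41 and 4.81 in E17.5 arrays A, B and C, against 6.96, 8.01 and 6.87 in E12.5 arrays A, B and C. All E17.5 arrays lay more than 2 log2 units below the lowest E12.5 array, and E12.5 B was the highest. The means were 4.61 ± 0.20 at E17.5 and 7.28 ± 0.63 at E12.5 (SD, n = 3 each), with a difference of -2.67 (SE 0.36, 95% interval -3.53 to -1.81, limma adjusted p = 0.00354; 0.0169 with A and B averaged). The E17.5 level was 0.157 times that of E12.5. This rests on 1 of 3 probe sets: the others had means of 3.10 and 2.61, differed by -0.44 and -0.01 and were not called, and the mean of all 3 was called too (adjusted p = 0.0044).

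Dach2, which works with Pax3, Eya2 and Six-family factors in chick somites and represses Myog in innervated mouse muscle, read 3.19, 3.22 and 3.27 in E17.5 arrays A, B and C, against 5.79, 5.42 and 4.95 in E12.5 arrays A, B and C. The E17.5 arrays lay in the background range under 4, so that the size of the fall depends on the background model. The means were 3.23 ± 0.04 at E17.5 and 5.39 ± 0.42 at E12.5 (SD, n = 3 each), and the difference was -2.16 (SE 0.24, 95% interval -2.73 to -1.59, limma adjusted p = 0.00158; 0.0109 with A and B averaged). With every value under 4 raised to 4 it was -1.39 (adjusted p = 0.0197), and with the mean of both Dach2 probe sets -1.43 (adjusted p = 0.0074).

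**Figure D3:**
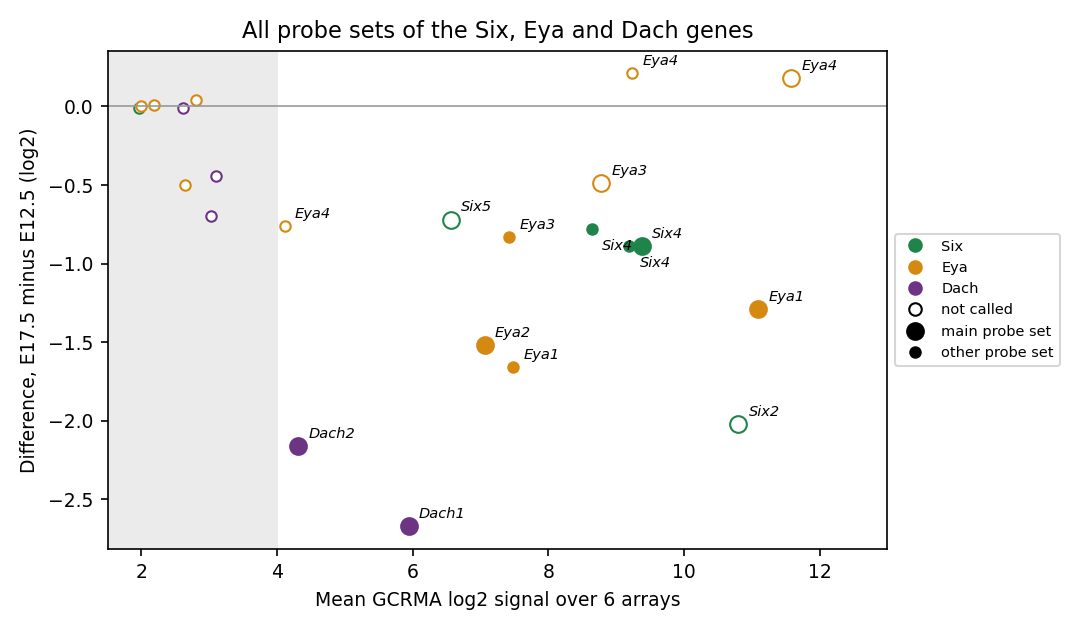
Difference between E17.5 and E12.5 (y axis, log2) against the mean signal over 6 arrays (x axis, log2) for all 23 probe sets, coloured by family, with large points for the main probe set of a gene and filled points for those called over all probe sets. Points in the grey band have a mean under 4, and none of these was called, while 9 of the 15 brighter ones were called lower.

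Taken by probe set, 9 of the 23 were called lower and 0 higher, against 4.35% and 4.54% of all 44994 probe sets. The 8 probe sets with a mean under 4 included no call. Of the 12 with a mean of at least 6, 7 were called lower: 3 of Six4, 2 of Eya1 and 1 each of Eya2 and Eya3. By gene, 13.2% of those averaging at least 6 were called lower. The share among all probe sets of that brightness was not taken. In Six4, Eya1 and Eya3 the probe sets with a mean of at least 6 all differed in the same direction.

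Among arrays of one age, E17.5 C was the highest of the E17.5 arrays in 8 of the 9 genes, the exception being Eya2, as it was in 67.5% of all genes. In Dach2, Eya4 and Six4 it lay only 0.04, 0.08 and 0.15 above the age mean. E12.5 B was the lowest of the E12.5 arrays in 6 of the 9, namely Six2, Six4, Eya1, Eya2, Eya3 and Eya4, against 59.0% of all genes, and the highest in Dach1. Among genes averaging at least 6, as 7 of the 9 do, the shares were 52.3% for E17.5 C and 38.6% for E12.5 B. Whether the 9 differ from other genes in this was not tested. The widest deviations were those of Six2, at 1.09 above its age mean in E17.5 C and -0.89 in E12.5 B. Dach1 stood 0.73 above its age mean in E12.5 B.

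Markers of other cell types moved between the same arrays. Of 10 limb bud mesenchyme markers 7 were lower at E17.5, and their mean signal was 4.35 to 4.56 in E17.5 arrays, against 6.55 to 8.25 in E12.5 arrays with the highest value in E12.5 B. Of 6 blood markers 2 were lower (1 with A and B averaged, and 1 without E12.5 A or any one E17.5 array), with means of 3.16 to 3.60 in E17.5 arrays and 4.98 to 6.62 in E12.5 arrays, and of 6 epidermis markers 3 were lower, with means of 4.13 to 4.23 in E17.5 arrays and 5.43 to 6.70 in E12.5 arrays. Fibroblast markers stood at 8.34, 8.31 and 7.31 in E17.5 A, B and C, against 7.07, 8.74 and 6.75 in E12.5 A, B and C, with 2 of 10 higher and 2 lower. These counts hung on single arrays: 5 were higher without E12.5 B and 1 without E12.5 C, E17.5 A or E17.5 B, while 0 were lower without E17.5 B or C and 1 without E12.5 A or E17.5 A. With A and B averaged 1 was higher and 1 lower. The 7 tendon markers (3 higher, 1 lower) averaged 7.65, 7.66 and 6.34 in E17.5 A, B and C and 5.83, 6.83 and 5.66 in E12.5 A, B and C. For the 7 cartilage markers, of which 1 was lower (0 without any one E12.5 array), these means were 6.69, 6.75 and 4.93 in E17.5 arrays and 6.87, 8.31 and 6.90 in E12.5 arrays. Connective tissue, tendon and cartilage markers were lowest of their age in E17.5 C, and all of these lists were highest of their age in E12.5 B. E17.5 C was the highest E17.5 array in 8 of the 9 genes, Six2 among them, and in 67.5% of all genes. Endothelial markers averaged 3.58 to 4.38 in E17.5 arrays and 3.52 to 4.67 in E12.5 arrays (1 of 7 higher), and markers of Schwann cells and neurons 2.52 to 2.63 in E17.5 arrays and 2.58 to 3.20 in E12.5 arrays (0 of 6 called, and 1 lower without E12.5 C). Of 10 markers of myogenic cells 6 were higher at E17.5 and 0 lower, with means of 10.96 to 11.0 in E17.5 arrays against 8.55 to 9.02 in E12.5 arrays. The part of other cell types in the lower signals of the network was not tested.

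**Figure D4:**
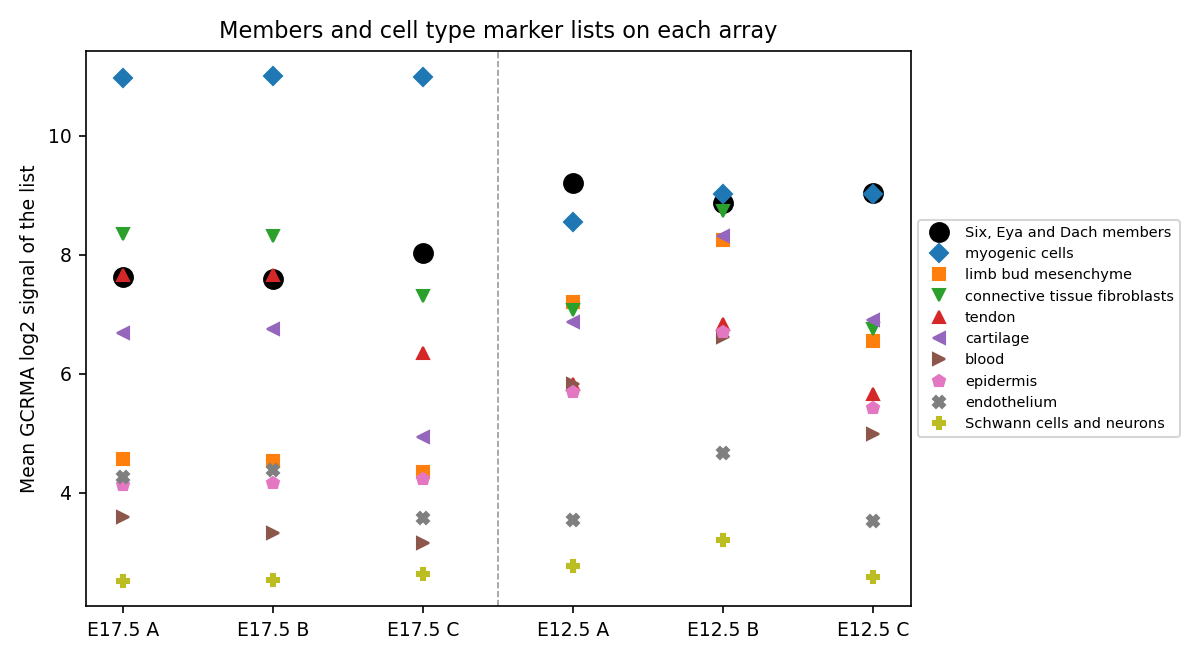
Mean log2 signal (y axis) of the 9 genes (black) and of the marker lists of 9 cell types on each array (x axis), E17.5 left of the dashed line and E12.5 right of it. The 9 genes average 7.59 to 8.02 at E17.5 and 8.87 to 9.20 at E12.5, while the myogenic markers lie near 11.0 at E17.5 and at 9.02 or below at E12.5.

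Genes that work with the network or carry described Six-bound elements were then set beside it. Of 6 Pax genes measured, Pax7 rose by 0.91 (SE 0.16, limma adjusted p = 0.0105; 0.0667 with its highest-variance probe set), Pax3, an embryonic muscle progenitor gene that Eya and Six-family factors activate, fell by 2.56 (SE 0.49, adjusted p = 0.0142; 0.0527 without E12.5 C), and 4 were not called. Like Six2, Pax3 had its lowest E12.5 value in B (6.80, with 8.67 in A and 8.34 in C). A list of 12 genes for partners of Six-family and Dach proteins in repression held Groucho and Ski family genes, with Hdac1 and others outside those families. Of these 12, 1 was higher, 2 were lower and 9 were not called. None was higher without E17.5 A or B and 2 were without E12.5 C, while 1 was lower without E17.5 A or with A and B averaged. Tle3, a Groucho gene, read 10.17 to 10.45 in E17.5 arrays and 11.03 to 11.06 in E12.5 arrays, a fall of 0.72 (SE 0.10, adjusted p = 0.00467). Hdac1, a histone deacetylase gene, fell by 0.63 (adjusted p = 0.0152; 0.0546 with A and B averaged and 0.0693 without E17.5 A) and Tle6, a divergent Groucho relative, rose by 1.5 (adjusted p = 0.00926; 0.0501 and 0.0518 without E17.5 A or B). The Dach relatives Ski (0.46) and Skil (0.23) were not called.

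Of 16 measured genes with described Six-bound elements 4 were higher, 4 lower and 8 not called, with a median difference of 0.17. Without E12.5 C 2 were lower. Myog, the MyoD-family gene of terminal differentiation whose promoter holds a MEF3 site, rose by 1.86 (SE 0.35, limma adjusted p = 0.0128) and read 12.99 to 13.13 in E17.5 arrays and 10.34 to 11.74 in E12.5 arrays. Myod1 read 10.94 to 11.04 in E17.5 arrays and 10.69 to 11.09 in E12.5 arrays (difference 0.15, adjusted p = 0.574), and the ages overlapped. Sall1, a zinc finger gene activated by Six-family factors in kidney, had the largest fall of the list, at 3.90 to 4.57 in E17.5 arrays and 7.30 to 7.87 in E12.5 arrays (-3.41, SE 0.29, adjusted p = 0.000582). Tnnc1, the slow troponin C gene, differed by -2.25 (adjusted p = 0.0373), but that call was lost with A and B averaged (adjusted p = 0.111) and without any one of E12.5 C, E17.5 A, E17.5 B and E17.5 C (adjusted p 0.054 to 0.117).

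Fast muscle genes, which depend on Six-family factors in the mouse, did not move in 1 direction. Of 14 measured 3 were higher, 4 lower and 7 not called (median -0.31), and 2 were lower without any one of the E17.5 arrays or with A and B averaged. Tnni2, fast troponin I, rose by 3.12 (SE 0.23, limma adjusted p = 0.000321) and Myh8, perinatal myosin, by 2.55 (SE 0.22, adjusted p = 0.00058). Pgam2, muscle phosphoglycerate mutase, fell by 4.83 (SE 0.30, adjusted p = 0.000189) and Eno3, muscle enolase, fell by 1.53 (SE 0.24, adjusted p = 0.00645). The difference of Actn3, fast alpha-actinin, was -1.34 (adjusted p = 0.0296; 0.0748 with A and B averaged, and 0.062 to 0.08 without any one of E12.5 B, E17.5 A, E17.5 B and E17.5 C). Of 10 genes listed for slow muscle 1 was lower, 0 were higher and 9 were not called (median 0.02). Without E12.5 B 2 were higher. The fallen one, Myh7, the slow myosin gene, differed by -2.33 (SE 0.20, adjusted p = 0.00059) and lay under 3 in all E17.5 arrays. Tnni1, slow troponin I, differed by 2.54 with the ages apart and was not called (adjusted p = 0.0507). The 10 include Sox6, known as a repressor of slow fibre genes, which was not called (1.06, adjusted p = 0.21).

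**Figure D5:**
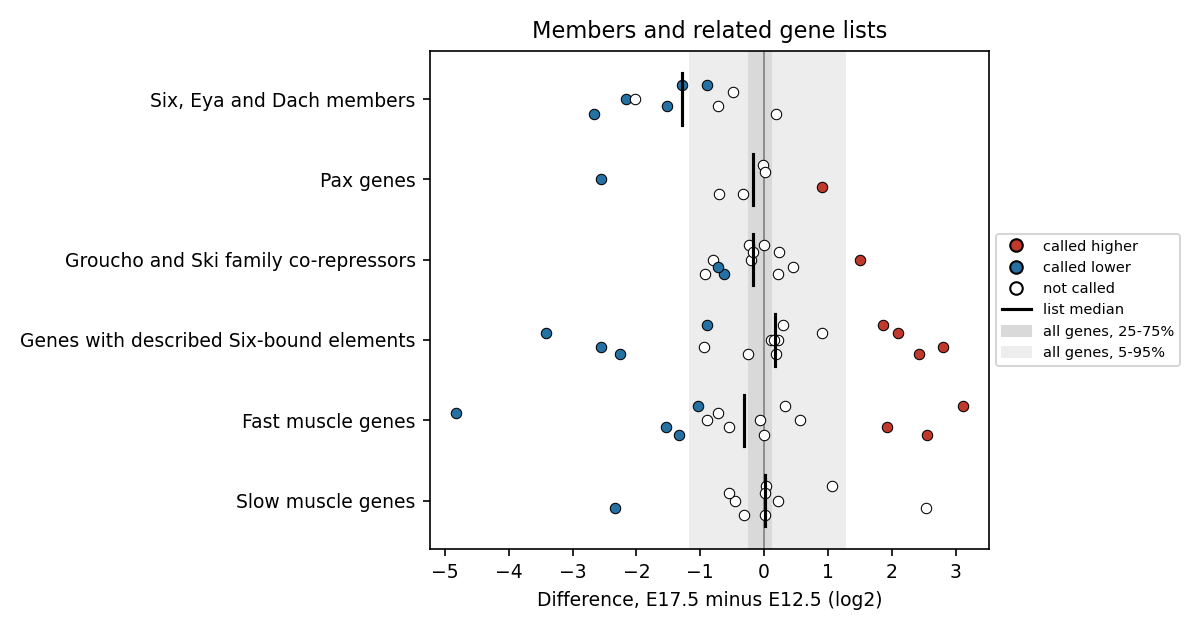
Difference between E17.5 and E12.5 (x axis, log2) of every measured gene in 6 lists (y axis), red where called higher and blue where called lower, with black bars for list medians and grey bands for the spread of all 18182 genes. The median of the 9 genes is -1.29, and those of the 5 related lists run from -0.31 to 0.17.

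For Six4, Eya1 and Eya2, the called genes averaging at least 6, those genes with the most similar pattern over the 6 arrays were taken by the root mean square distance between values centred on each gene's mean, among 8751 other genes of that brightness. Nearest to Six4 were Ccdc71 (distance 0.053) and Tmem35a (0.062), nearest to Eya1 were Polr3k, an RNA polymerase III subunit gene (0.080), and Zscan22 (0.085), and nearest to Eya2 were Zfp862-ps (0.081) and Vangl2, a planar cell polarity gene (0.101). Polr3k read 10.28, 10.22 and 10.66 in E17.5 arrays A, B and C and 11.93, 11.43 and 11.85 in E12.5 arrays A, B and C. As in Eya1, the highest E17.5 value was in C and the lowest E12.5 value in B. With this many genes and 6 arrays such likeness is a description only.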

How the data were processed

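Each of the 6 Affymetrix arrays holds RNA of sorted cells that was amplified from 100 ng in a 3′ protocol, per the labels' protocols. The authors deposited 1 log2 signal per probe set, and the submitters' processing notes name GCRMA (no version in the sources used here). It corrects background by probe sequence and compresses dim probe sets into a range mostly under 4, where differences depend on the background model.

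Of 44994 probe sets, 34909 had 1 platform symbol, updated by gene ID to RefSeq of GRCm38.p6. The probe set with the highest mean stood for each of 18182 genes. The test was limma's moderated linear model (version 3.58.1, R 4.3.3, variance prior with an intensity trend), without a filter or further normalization, and adjusted by Benjamini-Hochberg over all genes. Probe sets were tested in a fit over all probe sets. The fit was also run on simulated data with known changes. Its noise was independent between arrays, so that run says nothing about the likeness of E17.5 A and B. The limma p-values set each difference between ages against the spread between arrays of the same age.

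The members and lists were chosen with earlier results of these data known. Named genes are all 9 members, up to 3 risen and 3 fallen genes per related list (called, ages apart, higher mean at least 6), and the 2 nearest genes of each called member with a mean of at least 6. Myod1, Itga7, Ski, Skil, Myh7, Tnni1, Sox6, Six3, Hbb-y and Hba-x fall outside these rules and were added after their values were seen. Alternatives were other variance priors, array weights, choices of probe set, filters at 4 and 6, a floor at 4, quantile normalization, centring on bright genes, a replicate block, averaging E17.5 A and B, a threshold of 0.01, and leaving out each array. Figures were drawn with matplotlib 3.10.9.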

Additional observations from a re-analysis of the deposited data

How the results depend on the processing

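The lower calls of Six4, Eya1, Eya2, Dach1 and Dach2 were kept in every alternative that tested them (Dach1 and Dach2 have means under 6 and were not tested with that filter), with adjusted p up to 0.038 for Six4, 0.0351 for Eya1, 0.0305 for Eya2, 0.0193 for Dach1 and 0.0197 for Dach2. Array weights favoured E17.5 A and B (4.98 and 3.24) and E12.5 C (4.8), and 8 members were lower with them. Six2 was called there, with filters at 4 and 6, and without E12.5 B or E17.5 C; Six5 was called with array weights alone, and Eya3 there and with the highest-variance probe set. With that choice Eya4 differed by -0.76, and with the mean of probe sets by -0.09, neither called. Leaving out each array gave 5 to 6 lower members, 970 to 1553 higher genes and 771 to 1776 lower genes. Over all genes, 3204 were higher and 5220 lower with array weights, 841 and 701 at a threshold of 0.01, and 825 were lower with A and B averaged. With the replicate block 1014 genes and 5 members were lower. The deviations of same-letter arrays from their age means had correlations of -0.38 for A, 0.255 for B and -0.07 for C. No E17.5 array except B correlated best with its own letter. Deviations from a shared age mean depend on each other, so these correlations cannot settle whether the letters pair the arrays. Of the 20 other genes named by rule, 7 lost their call with A and B averaged. Signal over background limits Dach2 at E17.5 and 8 of the 23 probe sets.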
